A study of Mus musculus with 8 samples.

Results

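NF-kB subunits and the inhibitors that feed back on them were followed in the blood monocyte subsets of the mouse. The genes were taken from a list of 10: the subunits Nfkb1, Nfkb2, Rel, Rela and Relb, the IkB proteins Nfkbia and Nfkbie, the nuclear IkB proteins Nfkbiz and Bcl3, and the ubiquitin-editing enzyme Tnfaip3. A probe set belonged if the platform annotation gave it exactly 1 of these symbols, which held for 18 probe sets of 9 genes, out of 34945 probe sets of 18193 genes with a single symbol. Nfkb1 matched no probe set and was not analysed here. The 9 measured genes had between 1 and 5 probe sets each, and all 18 passed the filter on dim signal.

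NF-kB factors are dimers of subunits that share a Rel homology domain, by which they bind kB sites in DNA. In a resting cell the IkB proteins hold the dimers in the cytoplasm; signals from Toll-like, interleukin-1 and TNF receptors activate the IkB kinase, IkB is degraded and the dimers enter the nucleus. Among the genes they then switch on are several IkB proteins and Tnfaip3, which end the response, so these transcripts are widely read as a trace of recent NF-kB activity. In monocytes the pathway is known for driving inflammatory cytokine and survival genes.

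The cells were monocytes from blood leukocytes of 12-week-old C57Bl/6 mice, with no treatment or altered gene named in the labels, sorted as Gr1hi (Ly-6chi) or Gr1lo (Ly-6clo). Gr1hi cells correspond to classical monocytes and Gr1lo cells to the nonclassical, patrolling kind. Leukocytes of 5 mice were pooled for a sort and 4 sorts gave 4 replicates, so each subset had 4 arrays and a value is an average over pooled animals. The arrays were Affymetrix 3' expression arrays with 1 colour and precision is limited by there being 4 per subset, so that p-values measure the spread between pools. The question here is how the pathway's transcripts differ between the subsets, and all differences are given on the log2 scale as Gr1lo minus Gr1hi.

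All 8 measured monocyte marker genes, Csf1r, Itgam and Lyz2 among them, passed the filter on dim signal, with summed intensities of 53580 to 54350 in Gr1hi and 48450 to 50830 in Gr1lo. Ccr2, known to mark the Gr1hi subset, was lower in Gr1lo at -1.84, while Cx3cr1, known to be brighter on the Gr1lo subset, differed by 0.32 and was not called (adjusted p = 0.106). Of the markers of other blood cells, 2 of 5 tested B cell genes, Ms4a1 and Cd79a, were lower in Gr1lo, and the summed intensity of 8 B cell genes was 910 to 1375 in Gr1hi and 698 to 1014 in Gr1lo. Both tested NK cell genes, Klrd1 and Gzma, were higher in Gr1lo, by 1.67 and 0.71, with sums over 6 genes of 487 to 572 in Gr1hi and 798 to 986 in Gr1lo. Of 5 tested dendritic cell genes, Cd209a was higher and Flt3 lower in Gr1lo (sums over 6 genes of 1208 to 1402 and 1451 to 1962), and of 5 tested neutrophil genes only Mpo, at -0.24, was called, lower in Gr1lo (616 to 780 and 565 to 644, over 7 genes). No T cell, platelet or red cell gene was called; platelet sums over 5 genes ran from 1591 to 4017 in Gr1hi and from 1847 to 5210 in Gr1lo. The NK cell genes Klre1 and Eomes, the B cell genes Ebf1 and Cr2, the T cell genes Cd5 and Cd28, and Cxcr2, Xcr1 and Hba-a1 did not rise over the table median in any array. The part of such cells in the differences below was not tested, and in RNA of whole sorted populations fewer cells with a transcript and less of it per cell cannot be told apart.

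Most of the measured NF-kB genes were higher in Gr1lo monocytes. Nfkbiz stood far ahead of the others at 2.82-fold, followed by Nfkbia at 1.49-fold, Rel at 1.36-fold, Tnfaip3 at 1.26-fold, Nfkbie at 1.24-fold and Rela at 1.21-fold. Bcl3 ran the other way and was 1.56-fold higher in Gr1hi. Nfkb2 and Relb, the subunits of the noncanonical arm, were not called. By probe set, 14 of 18 were called by limma at a Benjamini-Hochberg adjusted p under 0.05, against 31.1% of all 22831 tested; 13 were higher in Gr1lo (15.2% of all) and 1 was lower (15.9% of all). With each gene represented by its brightest probe set, 6 of 9 members were higher in Gr1lo (14.1% of all 11546 genes), 1 was lower (18.5% of all) and 2 were not called. The median difference of the 9 genes was 0.31, beside -0.01 over all genes. The subsets did not overlap for 12 of 18 probe sets, against 31.8% of all, and Gr1lo lay above in 11 of them (15.4% of all). Counts by probe set weigh Nfkbia and Nfkbiz most, with 5 and 3 probe sets. By gene the subsets did not overlap for 6 of 9 members (3914 of all 11546), with Gr1lo above in 5 (1693 of all). Only Nfkbiz and Bcl3 were called with at least a 1.5-fold difference by their brightest probe sets, which 9.89% of all genes were. Nfkbia, at 1.49-fold by its brightest, ran from 1.33-fold to 1.58-fold over its 5 probe sets, so its side of 1.5-fold depends on the probe set.

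**Figure D1:**
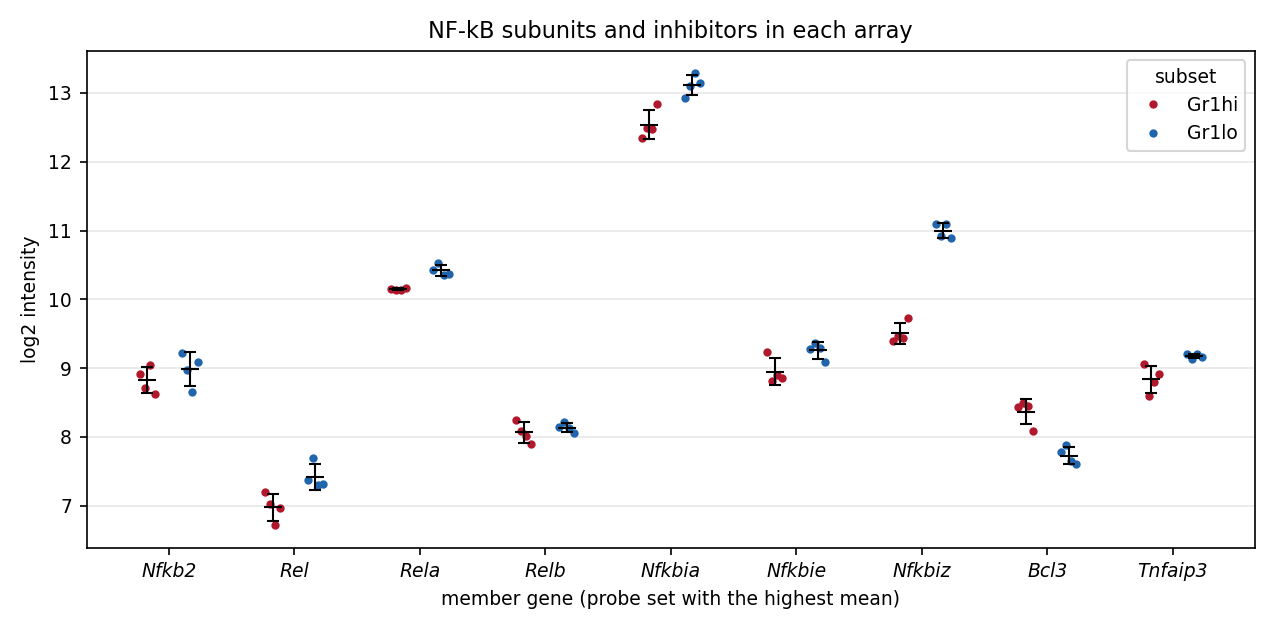
Log2 intensity (vertical axis) of the 9 measured NF-kB genes (horizontal axis, brightest probe set of each) in the 4 Gr1hi and 4 Gr1lo arrays; points are arrays, and bars are mean and SD over n = 4. The Nfkbiz points of Gr1lo lie between 10.89 and 11.10, all above the Gr1hi points, those of Bcl3 lie all below, and those of Nfkb2 and Relb overlap.

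Both measured canonical subunits were higher in Gr1lo. Rela, the p65 subunit that carries the main transactivation domain of the family, stood at 10.15, 10.13, 10.14 and 10.16 (log2 intensity) in Gr1hi arrays 1 to 4 and at 10.43, 10.52, 10.35 and 10.37 in Gr1lo arrays 1 to 4. The Gr1hi arrays lay close together (SD 0.01), the Gr1lo arrays were spread more widely (SD 0.08), and the subsets did not overlap. The difference was 0.27 (SE 0.06, 95% interval 0.14 to 0.41, adjusted p = 0.0045). Rel, the c-Rel subunit best known from lymphocytes and from cytokine control in myeloid cells, was dim on this array, at 7.20, 7.03, 6.72 and 6.97 in Gr1hi and 7.37, 7.69, 7.30 and 7.31 in Gr1lo. Gr1lo array 2 was the highest and Gr1hi array 3 the lowest, with no overlap. Its difference was 0.44 (SE 0.11, 95% interval 0.19 to 0.69, adjusted p = 0.0105).

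The subunits of the noncanonical arm overlapped between subsets. Relb, the partner of processed p100, stood at 8.25, 8.09, 8.02 and 7.90 in Gr1hi and 8.15, 8.22, 8.12 and 8.05 in Gr1lo, so all 4 Gr1lo values fell inside the range of the Gr1hi values. The difference was 0.07, with a 95% interval from -0.10 to 0.25 (adjusted p = 0.57). Nfkb2, which encodes p100 and its product p52, stood at 8.92, 8.71, 9.04 and 8.62 in Gr1hi and 9.22, 8.97, 8.65 and 9.09 in Gr1lo by its brighter probe set. That difference was 0.16, with an interval from -0.12 to 0.43 (adjusted p = 0.40), and the dimmer probe set, of a kind (_x_at) that can cross-hybridise, gave -0.03, with an interval from -0.19 to 0.14 (adjusted p = 0.83).

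A subunit that was called and a subunit that was not are not thereby shown to differ, so differences between the members' differences were tested over the 8 arrays. Of 7 pairs, chosen after the values were seen, the 2-sided exact permutation test over 70 orders gave its smallest possible p, 0.0286, for 3: Nfkbiz over Nfkbia by 0.92, Nfkbiz over Bcl3 by 2.13, and Rel over Relb by 0.37. The outcome for Nfkbiz over Bcl3 was fixed in advance. Both genes separated the subsets without overlap and in opposite directions, so that p adds nothing to their separate results. Rela exceeded Relb by 0.20 (exact permutation p = 0.0571), and Nfkbia exceeded Rela by 0.30 (exact permutation p = 0.0857). Each gene entered these pairs by its brightest probe set. The other Nfkbia probe sets, which ordered the arrays differently, were not tested in this way. Rela exceeded Nfkb2 by 0.12 (exact permutation p = 0.486) and Rel exceeded Nfkb2 by 0.28 (exact permutation p = 0.286). Adjusted over the 7 pairs, the one fixed in advance included, none passed 0.05, the lowest adjusted exact p being 0.0667. The pair fixed in advance is 1 of the 3 at the smallest p, which lowers the adjusted p of the others at that value.

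**Figure D2:**
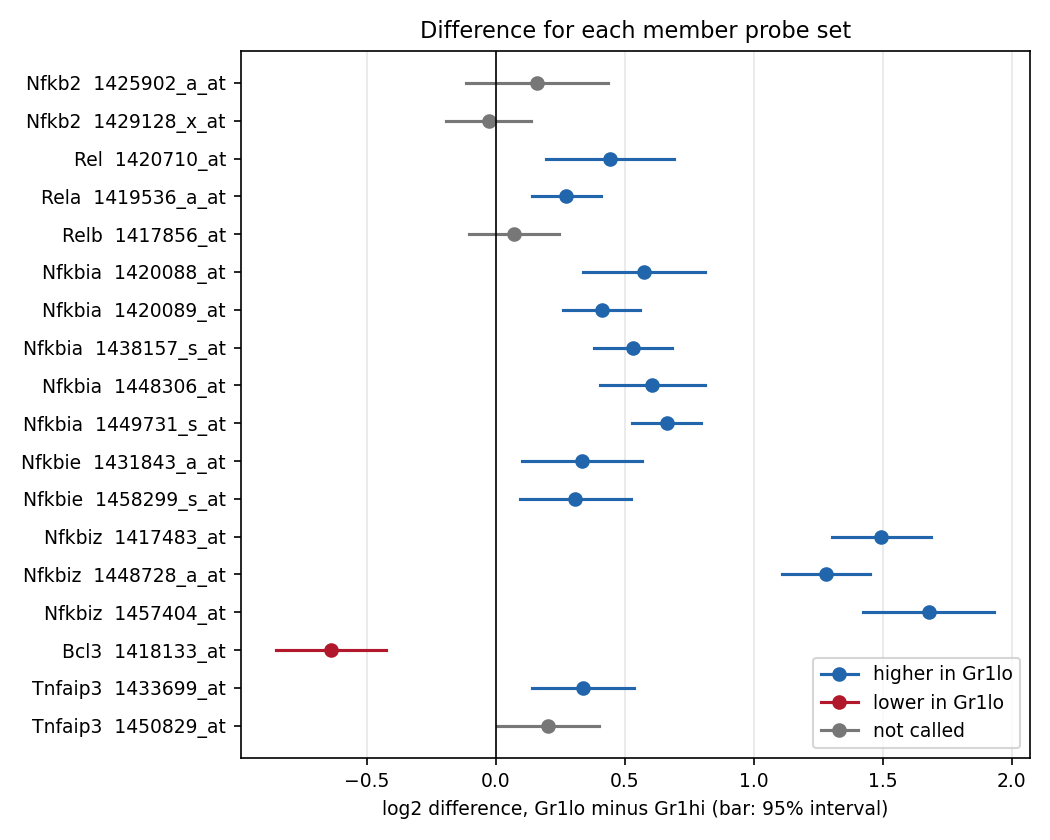
Log2 difference, Gr1lo minus Gr1hi (horizontal axis), for each of the 18 probe sets (vertical axis) with its 95% interval from limma; blue marks higher in Gr1lo, red lower in Gr1lo and grey not called. The 3 Nfkbiz probe sets lie between 1.28 and 1.68, the 5 Nfkbia probe sets between 0.41 and 0.66, and Bcl3 at -0.64.

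Nfkbia, the IkB-alpha protein that captures dimers and is itself resynthesised under NF-kB control, was higher in Gr1lo by all 5 of its probe sets. The second brightest, annotated to its RefSeq transcript, stood at 11.31, 11.14, 11.46 and 11.07 in Gr1hi and 11.84, 11.90, 11.70 and 11.96 in Gr1lo, with no overlap. Its difference was 0.61 (SE 0.09, 95% interval 0.40 to 0.81, adjusted p = 0.00038). The brightest probe set stood at 12.35, 12.49, 12.48 and 12.84 in Gr1hi and 12.92, 13.11, 13.29 and 13.15 in Gr1lo. Gr1hi array 4 was its highest Gr1hi value and still lay below the lowest Gr1lo value, and the difference was 0.58 (SE 0.11, adjusted p = 0.0015). The tightest estimate came from the fourth brightest, at 10.45, 10.47, 10.48 and 10.38 in Gr1hi and 11.07, 11.09, 11.06 and 11.21 in Gr1lo. It differed by 0.66 (SE 0.06, adjusted p = 7.1e-06). The third brightest and the dimmest differed by 0.53 (adjusted p = 0.00010) and 0.41 (adjusted p = 0.00070). The third and the fourth are of a kind (_s_at) that can match more than 1 transcript.

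The Nfkbia probe sets concurred on the difference between subsets but not on the order of arrays within a subset. After each subset's mean was subtracted, the brightest probe set correlated with the other 4 at r from -0.58 to -0.08 over 8 arrays, whereas those 4 correlated with each other at r from 0.46 to 0.93. Gr1hi array 4 was the highest of its subset by the brightest probe set and the lowest by that of the RefSeq transcript. These correlations share the same 8 arrays and their normalization and are a description. The order of single arrays is therefore not fixed by these probe sets, while the direction between subsets was shared by all 5.

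**Figure D3:**
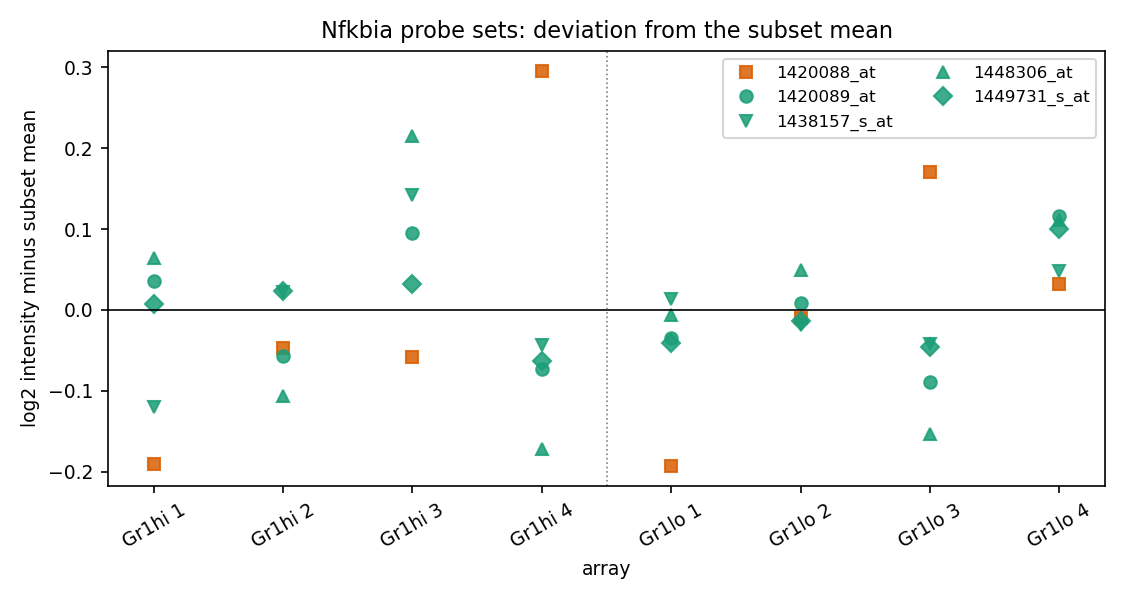
Deviation of log2 intensity from the subset mean (vertical axis) for the 5 Nfkbia probe sets in each array (horizontal axis; the dotted line separates the subsets). The brightest probe set, in orange, is at its highest Gr1hi value in Gr1hi array 4, where the probe set of the RefSeq transcript (triangles pointing up) is at its lowest.

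Nfkbie, the IkB-epsilon protein that restrains Rela and Rel dimers, was called higher in Gr1lo by both probe sets, but its subsets overlapped. The brighter probe set is of a kind (_s_at) that can match more than 1 transcript. By the brighter probe set it stood at 9.23, 8.81, 8.90 and 8.86 in Gr1hi and 9.28, 9.37, 9.30 and 9.09 in Gr1lo, so Gr1hi array 1 lay above Gr1lo array 4. The difference was 0.31 (SE 0.10, 95% interval 0.09 to 0.52, adjusted p = 0.0322). The dimmer probe set stood at 8.27, 7.90, 7.82 and 7.83 in Gr1hi and 8.41, 8.40, 8.19 and 8.16 in Gr1lo, again with Gr1hi array 1 high, and differed by 0.33 (SE 0.11, adjusted p = 0.0321). The call was lost by both probe sets when Gr1hi array 2, 3 or 4 or Gr1lo array 1 or 2 was left out, and by the brighter also without Gr1lo array 3; adjusted p then ran from 0.0697 to 0.0942 for the brighter and from 0.0791 to 0.0895 for the dimmer.

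Nfkbiz, the nuclear IkB-zeta protein that is quickly induced and is needed for a secondary set of inflammatory genes, showed the largest difference among the members. It stood at 9.39, 9.47, 9.43 and 9.73 in Gr1hi and 11.10, 10.92, 11.09 and 10.89 in Gr1lo by its brightest probe set. The gap between the highest Gr1hi and the lowest Gr1lo array was wider than the range within either subset. The difference was 1.49 (SE 0.09, 95% interval 1.30 to 1.69, adjusted p = 2.1e-07), which 1.63% of all tested genes exceeded in size. A second probe set stood at 8.85, 8.55, 8.34 and 8.33 in Gr1hi and 10.30, 10.26, 9.99 and 10.24 in Gr1lo, and differed by 1.68 (SE 0.12, adjusted p = 7.2e-07). The third, the dimmest, stood at 7.80 ± 0.13 in Gr1hi and 9.08 ± 0.09 in Gr1lo (mean ± SD, n = 4 each), and differed by 1.28 (SE 0.08, adjusted p = 3.1e-07). All 3 separated the subsets without overlap.

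Bcl3, the nuclear IkB protein that joins p50 or p52 homodimers on DNA, was the member with lower values in Gr1lo. Its single probe set stood at 8.44, 8.49, 8.44 and 8.09 in Gr1hi and 7.78, 7.88, 7.65 and 7.60 in Gr1lo. Gr1hi array 4 lay apart from the other 3 Gr1hi arrays, toward Gr1lo, and the subsets still did not overlap. The difference was -0.64 (SE 0.10, 95% interval -0.85 to -0.43, adjusted p = 0.00036), and 8.65% of all tested genes differed by more. Of the nuclear IkB proteins, Nfkbiz and Bcl3 were thus called in opposite directions.

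Tnfaip3, the A20 protein that removes activating ubiquitin chains from the receptor complexes, was higher in Gr1lo by its brighter probe set. It stood at 9.06, 8.59, 8.79 and 8.91 in Gr1hi and 9.20, 9.14, 9.21 and 9.17 in Gr1lo. The Gr1lo arrays lay close together (SD 0.03), the Gr1hi arrays were spread more widely (SD 0.20), and the subsets did not overlap. The difference was 0.34 (SE 0.09, 95% interval 0.14 to 0.54, adjusted p = 0.0135). The dimmer probe set, near the lower end of the tested range, gave 0.20 (SE 0.09, adjusted p = 0.12) with overlapping values, and was called only without Gr1hi array 4 (0.27, adjusted p = 0.0432).

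Since several of these genes are known to be controlled by NF-kB itself, their promoters were searched for the kB consensus in its usual degenerate form of 10 bases, on both strands, in the 250 bases before each transcription start that RefSeq gives (GRCm38.p6). The table held promoters of 7 members; Nfkb1, Relb and Nfkbiz were not in it. A match stood before at least 1 start of 5 of the 7, namely Nfkb2, Rel, Nfkbia, Nfkbie and Tnfaip3, beside 7.25% of all 32851 promoters of the same length and 8.23% of 27025 genes. No match was found in the windows of Rela and Bcl3, which partly overlap the spans RefSeq gives these genes, nor before a second Tnfaip3 start, inside the span of that gene. Stretches that hold a match are shown so that the letters matched can be compared between genes; the match is in capitals, adjoining overlapping matches are run together, and each is written 5′ to 3′ on the strand of the gene.
Nfkbia (chr12:55492648-55492706, minus strand): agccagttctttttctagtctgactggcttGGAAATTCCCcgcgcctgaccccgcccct
Rel (chr11:23771022-23771091, minus strand): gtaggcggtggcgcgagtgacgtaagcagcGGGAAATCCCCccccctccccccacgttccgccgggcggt
Tnfaip3, near (chr10:19015411-19015452, minus strand): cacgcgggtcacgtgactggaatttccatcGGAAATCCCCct
Tnfaip3, far (chr10:19015496-19015565, minus strand): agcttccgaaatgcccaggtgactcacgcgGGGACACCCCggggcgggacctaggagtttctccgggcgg
Nfkbie (chr17:45555564-45555633, plus strand): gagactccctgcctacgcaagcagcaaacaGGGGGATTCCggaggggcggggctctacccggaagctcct
Nfkb2 (chr19:46304668-46304736, plus strand): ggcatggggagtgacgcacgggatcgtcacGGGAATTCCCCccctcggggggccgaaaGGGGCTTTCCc

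The matches began 29 bases before the start in Nfkbia, 12 and 125 in Tnfaip3, 92 in Rel, 106 in Nfkbie, and 39 and 11 in Nfkb2. The Nfkb2 stretch shown lies before the most upstream of the 3 starts that the promoter table gives for this gene, inside the span RefSeq gives the gene, and a match also stood before each of the other two starts. Genes with a match were thus found both among the members called higher in Gr1lo (Nfkbia, Rel, Nfkbie and Tnfaip3) and in Nfkb2, which was not called. A match is a string of letters and shows no binding in these cells.

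Other genes of the pathway were counted in lists, to be read against the 32.5% of all genes that were called (14.1% higher and 18.5% lower in Gr1lo). Among receptors that feed NF-kB, 3 of 14 tested were higher in Gr1lo and 4 were lower. The TNF receptor Tnfrsf1b rose from 11.45 ± 0.09 in Gr1hi to 12.23 ± 0.06 in Gr1lo (log2 intensity, mean ± SD, n = 4 each), a difference of 0.78 (adjusted p = 3.7e-06). Tlr7, the endosomal receptor for single-stranded RNA, was higher in Gr1lo by 0.53 (adjusted p = 0.00051). The lipopolysaccharide co-receptor Cd14 was lower in Gr1lo at -1.12 (adjusted p = 0.00041), as was the beta-glucan receptor Clec7a at -0.75 (adjusted p = 1.6e-05).

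Adaptors, ubiquitin ligases and kinases between the receptors and IkB were called for 8 of 26, 4 in each direction, a share near the 32.5% of all genes. The IkB kinase relative Ikbke was the most different, with 8.37 ± 0.11 in Gr1hi and 7.25 ± 0.16 in Gr1lo (n = 4 each), a 2.16-fold higher level in Gr1hi (adjusted p = 2.5e-06). Traf5, an adaptor of TNF family receptors, was lower in Gr1lo at -0.60 (adjusted p = 2.9e-05). Map3k8 (Tpl2), the kinase held by p105, was higher in Gr1lo by 0.49 (adjusted p = 0.00042). Map3k14, the NF-kB inducing kinase NIK of the noncanonical arm, was higher in Gr1lo by 0.40 (adjusted p = 0.0022) with its brighter probe set and by 0.70 (adjusted p = 2.2e-05) with the other; without Gr1hi array 2, 3 or 4 the other probe set became the brighter, and the value was 0.64 to 0.73. The core kinase subunits Ikbkb and Ikbkg, chosen after their values were seen, differed by 0.04 and 0.06 (95% intervals -0.10 to 0.17 and -0.13 to 0.25) and were not called. These values are from the brightest of 5 tested probe sets for Ikbkb and of 6 for Ikbkg. Nod2, Irak4, Traf3, Ripk1, Ripk2, Chuk, Card9 and Tnip3 were listed but matched no probe set by symbol and were not analysed here.

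Other brakes on the pathway were called for 6 of 18, near the 32.5% of all genes, with 5 higher (14.1% of all) and 1 lower (18.5% of all) in Gr1lo. Nfkbid, a further nuclear IkB protein, was higher by 0.50 (adjusted p = 0.0024), and Tnip1, the ubiquitin-binding partner of A20, rose from 9.70 ± 0.11 to 10.18 ± 0.09 (n = 4 each), a difference of 0.48 (adjusted p = 0.00036). Commd1, which promotes the turnover of Rela, was lower in Gr1lo at -0.35 (adjusted p = 0.0128). None of these 18 genes was called with a 1.5-fold difference.

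Known target genes of NF-kB were called in both directions, 5 of 24 higher (14.1% of all genes) and 4 lower in Gr1lo (18.5% of all). Without Gr1hi array 2 or Gr1lo array 3 the lower ones numbered 2. Cd83, a surface protein of activated antigen-presenting cells, was 9.79-fold higher in Gr1lo, and the cytokine Il1b was 3.08-fold higher (adjusted p = 6.4e-08 and 0.00010). The chemokine Cxcl10 was lower in Gr1lo at -2.26 (adjusted p = 5.7e-08), as was Ccl2 at -0.63 (adjusted p = 0.0032), whose Gr1lo mean of 6.00 lay below the table median of 6.36, so that Gr1hi was at least 1.22-fold higher. The median difference of the 24 genes was 0.04, beside -0.01 over all genes. Of the other 7 listed targets, Il6, Il10 and Nos2 among them, no probe set passed the filter on dim signal.

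Many genes that respond at once to stress and to the handling of cells were also higher in Gr1lo. Of 22 tested, 12 were higher (14.1% of all genes), 2 were lower (18.5% of all) and 8 were not called, with a median difference of 0.36, beside 0.31 for the members. The list is not specific to handling. Its 12 higher genes include the transcription factors Nr4a1 at 1.23 (adjusted p = 3.6e-07) and Klf2 at 0.45 (adjusted p = 0.0015). These were named outside the rule for the lists, with their values known. The 8 not called ran from Dusp1 at 0.27 to Egr3 at -0.09, with Egr1 at 0.20, Zfp36 at 0.08 and Junb at -0.08 among them. Fosb, Egr2, Hspa1a and Myc were listed, but no probe set of theirs passed the filter on dim signal. Jun was higher in Gr1lo by 1.60 (adjusted p = 8.8e-05) with its brighter probe set and by 0.77 (adjusted p = 0.00039) with the other. The heat shock gene Hspa1b was higher by 1.47 (adjusted p = 0.0245) with its brightest probe set, whose subsets overlapped. A dimmer probe set gave 1.63 (adjusted p = 0.0282), also with overlap. The dimmest gave 1.71 (adjusted p = 0.0154) without overlap, with a Gr1hi mean of 5.95, below the table median. The call by the brightest Hspa1b probe set was lost without Gr1hi array 1 or 4 or Gr1lo array 2 or 4 (adjusted p = 0.0671 to 0.0766) and with a trended, robust variance (adjusted p = 0.104). Fos, the immediate early factor, went the other way, at 11.60 ± 0.32 in Gr1hi and 9.36 ± 0.70 in Gr1lo (n = 4 each), a difference of -2.25 (adjusted p = 9.8e-05), and the stress factor Atf3 was lower in Gr1lo at -0.82 (adjusted p = 7.9e-06). The part of handling in the members' differences was not tested.

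**Figure D4:**
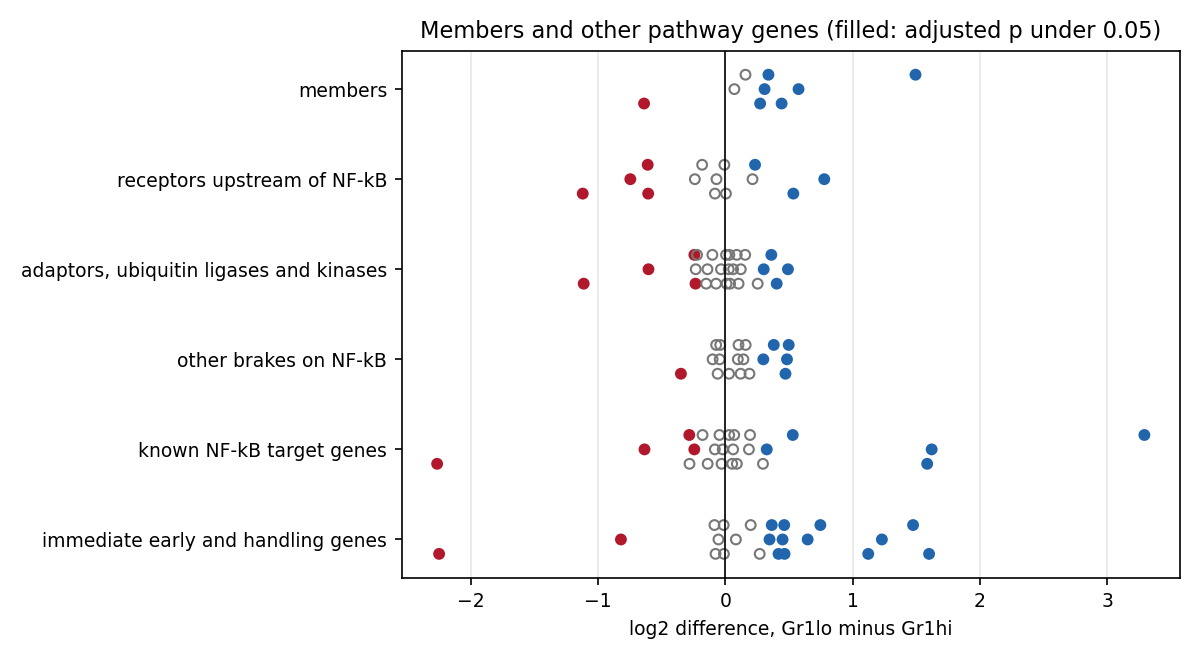
Log2 difference, Gr1lo minus Gr1hi (horizontal axis), for the 9 members and for each tested gene of 5 lists (vertical axis, small vertical offsets for legibility); filled points were called at an adjusted p under 0.05, blue higher and red lower in Gr1lo, and open points were not called. Members are called higher in Gr1lo for 6 of 9, receptors for 3 of 14, adaptors and kinases for 4 of 26, other brakes for 5 of 18, targets for 5 of 24 and immediate early genes for 12 of 22.

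After each subset's mean was subtracted, the 36 pairs of the 9 genes correlated at r from -0.78 to 0.81 over 8 arrays, with a median of 0.11, and 21 of 36 were above 0. The highest was Relb with Nfkbie and the lowest was Nfkbia, by its brightest probe set, with Bcl3. With the Nfkbia probe set of the RefSeq transcript in its place, a choice made after seeing the data, 26 of 36 were above 0, with a median of 0.20 (r from -0.75 to 0.83). The highest pair was then Nfkbia with Nfkb2, the lowest was Nfkbia with Nfkbiz, and Nfkbia with Bcl3 stood at 0.44. The genes whose centred values followed the brightest Nfkbia probe set most closely were Bvht, Flcn, Rnf146, Mtfr1 and Laptm4a, at r from 0.97 to 0.98. Of these Flcn and Mtfr1 were lower and Laptm4a was higher in Gr1lo. For the probe set of the RefSeq transcript they were Acadvl, Lat, Brpf3, Rfxank and Ssr3, and 0 genes were shared, so the neighbours depend on the probe set. All points share the same arrays and normalization.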

How the data were processed

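The authors deposited probe set intensities on a linear scale, with like medians on every array. GCRMA and MAS5 are named in the submitters' processing notes, without version or order, so the form of normalization is not given in the sources used here. Per the labels' protocols, the in vitro transcription step ran for 64 h in place of 4 h, which can change 3' to 5' balance and the size of ratios. The log2 signal of 3' minus 5' control probe sets for Actb was 0.32 to 0.44 in Gr1hi and 0.26 to 0.34 in Gr1lo. For Gapdh it was 0.03 to 0.36 in Gr1hi and 0.08 to 0.14 in Gr1lo. The part of this balance in the members' differences was not tested. The analysis used log2 intensity without a pseudocount. After 64 control probe sets were left out, a probe set was tested if it lay over the table median (81.9, log2 6.36) in at least 4 of 8 arrays (22831 of 45037). Differences were fitted over all of these with limma 3.58.1 in R 4.3.3 (2-sided, equal weights, no block, Benjamini-Hochberg over all, threshold 0.05). A gene was represented by its tested probe set with the highest mean. The values of different probe sets are not comparable as amounts of RNA. Where the dimmer subset lay under the table median, the fold is a lower bound against that median.

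Gene symbols came from the platform annotation, checked through Entrez identifiers (0 changed). All members were named, with the 2 called genes of largest difference in each direction per pathway list, and the 5 genes most correlated with Nfkbia after centring on subset means. Members and lists (from general knowledge) were chosen with earlier results of these data known. The alternatives tried had each array left out in turn, or both numbered 1, a replicate block, other filters, quantile normalization, log2(value + 32), a trended robust variance, array weights, averaged probe sets and a threshold of 0.01. On simulated data of 22831 probe sets the fit recovered 6%, 64%, 98% and 100% of 50 probe sets each changed by 0.25, 0.5, 1 and 2 on the log2 scale, with 10 false among 144 calls. Far fewer probe sets were changed there than the 31.1% called in the measured data. The adjusted threshold was therefore stricter in the simulation, and its shares do not give the recovery in the measured data.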

Additional observations from a re-analysis of the deposited data

Results flagged for a closer look

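In 3 of 74 groups of 4 arrays checked, counting the 18 member probe sets and the other named pathway genes in both subsets, 1 array lay far from the rest by Dixon's criterion; chance flags about 1 in 20 groups. In the dimmer Nfkbie probe set, Gr1hi array 1 stood at 8.27 against 7.90 for the next. In Bcl3, Gr1hi array 4 stood at 8.09 against 8.44 for the next. In Traf5, Gr1hi array 1 stood at 8.23 against 8.09 for the next.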

How the results depend on the processing

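Of the 18 member probe sets, 14 kept their direction and their side of the threshold under every alternative fit, the stricter threshold apart. The exceptions were both Nfkbie probe sets, the dimmer Tnfaip3 probe set and the dimmer Nfkb2 probe set. The last, never called, changed sign with array weights (0.0022) and ran from -0.061 to 0.028 when single arrays were left out. Members called by gene numbered 4 at a threshold of 0.01 (Rela, Nfkbia, Nfkbiz and Bcl3) and 6 to 7 when single arrays were left out. By probe set they numbered 10 at 0.01, where Rel, Tnfaip3 and both of Nfkbie dropped out (4892 of all 22831 were called there), 12 to 14 without single arrays (6229 to 6761 of all), and 14 without both arrays numbered 1 (5994 of all). Total counts per pathway list stayed within 1.5 times, the brakes running from 4 to 8. By direction, the adaptors lower in Gr1lo fell from 4 to 2 with averaged probe sets, at 0.01 and without both arrays numbered 1, as did the targets at 0.01 and without both arrays numbered 1, and the 1 brake lower in Gr1lo was lost at 0.01. With the replicate number as a block, 14 member probe sets and 7 member genes were called and 7164 probe sets in all. Same-numbered arrays correlated in their deviations at 0.27, 0.34, -0.03 and -0.10, and 3 of 8 arrays correlated best with their own number. Arrays of different number ran from -0.41 to 0.55. The highest of all was Gr1hi array 4 with Gr1lo array 3, so a link between subsets that does not follow the numbers was not tested. The labels do not say whether a shared number marks a shared sort, so the numbers were not taken as pairs. Both subsets may still come from the same sorts, while the main fit and the exact tests take the arrays as independent. Signal limits Rel and the dimmer Tnfaip3 probe set, which fell out with a filter at 2 times the table median.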
